A study of Mus musculus with 8 samples.

Results

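Open chromatin was examined at 10 genes that switch on with, or hold back, ERK signalling: the phosphatase genes Dusp4, Dusp5 and Dusp6, the inhibitor genes Spry1, Spry2, Spry4 and Spred1, and the ETS transcription factor genes Etv1, Etv4 and Etv5. Their regions were those of the deposited count table whose centre lay inside a gene or within 50 kb of it with that gene's end as the nearest protein-coding gene end (GRCm38). This gave 129 of 148664 regions, for 10 of 21896 genes. Of the 129, 36 lay inside a gene, and 126 passed the filter on low counts. Dusp4, Dusp6 and Spred1 had 19 regions each, Dusp5 had 17, Etv1 14, Spry2 11, Etv4 10, Spry1 8, Etv5 7 and Spry4 5.

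The data were 8 ATAC-seq libraries from mouse melanoma cell lines. ATAC-seq uses the Tn5 transposase to cut and tag DNA that is not covered by nucleosomes, so the count of a region measures how accessible it was. The lines with STAT3 knockout (Stat3Δ in the labels) were 112 and 113, and the wild-type lines, which carried the floxed Stat3fl allele, were 119 and 73, with 2 libraries each. STAT3 is a transcription factor switched on by cytokine receptors, and the design compared lines with and without it. The labels name no treatment for any group. All 4 had been grown from lymph node suspensions of animals with skin melanoma, and the labels call them pools in one place and clones in another. The titles give the lines a p number (18 for line 112, 44 for line 113, 14 for line 119, 68 for line 73) whose meaning is not stated. Each reaction held 50000 cells, and DNA fragments over 1200 bp were removed. Each genotype is thus 2 lines, and a difference between genotypes cannot be told apart from a difference between lines. The labels call the libraries of a line biological replicates without naming separate cultures, so the spread between them may be technical. In such bulk material, a lower share of cells with open DNA at a site and less open DNA in every cell cannot be told apart.

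Growth factor receptors pass their signal through RAS, RAF and MEK to the kinases ERK1 and ERK2. Active ERK induces genes whose products dampen the same pathway: DUSP6 removes phosphate from ERK in the cytoplasm, DUSP5 and DUSP4 act in the nucleus, and Sprouty and SPRED proteins act upstream, at the level of RAS and RAF. ETV1, ETV4 and ETV5 form the PEA3 group of ETS factors, which bind a GGAA core and carry ERK output to the genome. In melanoma, where BRAF or NRAS is often mutated, this set of genes is widely used as a readout of pathway activity.

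Promoter sequences (RefSeq, GRCm38.p6, the 250 bases before and 50 after each start) matched 7 of the 10 genes: Dusp5, Dusp6, Spry1, Spry2, Spred1, Etv1 and Etv5. The 250 bases before the start are shown for 3 of them. Dusp5 and Spry1 are shown because their start regions had the 2 lowest log2 fold changes of line 112 over line 113. Dusp6 is shown beside them as the other DUSP gene with a sequence. Capitals mark a motif match on either strand.

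Dusp5 (chr19:53528895-53529144, plus strand): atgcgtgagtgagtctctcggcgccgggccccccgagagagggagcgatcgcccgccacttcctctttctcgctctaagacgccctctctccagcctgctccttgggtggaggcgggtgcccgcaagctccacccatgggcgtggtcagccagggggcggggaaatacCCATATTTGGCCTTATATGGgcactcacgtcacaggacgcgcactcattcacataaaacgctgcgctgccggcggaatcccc
Dusp6 (chr10:99262981-99263230, plus strand): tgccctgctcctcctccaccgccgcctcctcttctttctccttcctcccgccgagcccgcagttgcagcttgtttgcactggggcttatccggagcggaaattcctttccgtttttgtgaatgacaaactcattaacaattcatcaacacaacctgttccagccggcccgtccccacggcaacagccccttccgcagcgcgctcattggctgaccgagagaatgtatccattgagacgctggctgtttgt
Spry1 (chr3:37639697-37639946, plus strand): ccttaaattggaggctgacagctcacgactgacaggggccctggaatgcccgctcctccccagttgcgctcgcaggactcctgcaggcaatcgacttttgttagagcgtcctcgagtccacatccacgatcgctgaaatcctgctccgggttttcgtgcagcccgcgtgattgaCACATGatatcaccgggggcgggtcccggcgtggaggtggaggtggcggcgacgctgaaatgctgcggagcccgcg

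The motifs searched, on both strands of the whole window, were the ETS core CCGGAA, the AP-1 site TGANTCA, the CRE TGACGTCA, the STAT site TTCCNGGAA and its looser form TTCNNNGAA, which holds it, the M-box CATGTG and the E-box CACGTG. The CArG box, the binding sequence of SRF, was added after the Dusp5 sequence had been seen. Dusp5 held 2 adjacent CArG boxes, 82 and 72 bases before the start, and a CArG box was present in 1.63% of 32851 promoters. Spry1 held CATGTG 76 bases before the start (14.2% of promoters), and Spry2 held CCGGAA 33 bases after it (14.9%). The other 4 of the 7 held none of the 8 motifs. These matches describe the letters and say nothing on binding.

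Total counts were lowest in line 112 replicate 2 (2697546) and highest in line 119 replicate 1 (7464336). Line 112 replicate 2 stood apart with 20387 peak calls, against 38743 to 94906 in the other 7 libraries, and a peak call overlapped 23 of the 129 regions there, against 51 to 75. Counts within 1 kb of a gene end took 24.9% and 25.2% of the total for line 119 and 29.4% and 30.5% for line 112. These shares were 35.1% and 35.2% for line 113 and 35.2% and 35.4% for line 73. All 7 melanocyte markers had a peak at a gene end in at least 1 library. Mitf and Pmel had one in all 8, whereas Tyr, Tyrp1, Dct and Mlana had line means of at most 3.79 CPM (counts per 1000000 after scaling) in the wild-type lines, and Sox10 had 3.44 CPM in line 73. The summed level of 4 fibroblast markers was 99.9 CPM in line 73 and 20.7 to 28.0 CPM in the other lines. Col1a1, Col1a2 and Pdgfrb were each highest in line 73, with means of 18.3, 32.2 and 48.2 CPM. Pdgfra went the other way and was lowest there, at 1.22 CPM, close to the 1.83 CPM of line 119. Both knockout lines had more of it, at 13.8 CPM (112) and 15.9 CPM (113). Of the other lists, 3 of 6 immune, 1 of 3 endothelial and 2 of 4 keratinocyte markers had a region at a gene end, with sums of 15.4 to 22.5, 3.82 to 7.38 and 4.54 to 10.4 CPM over the lines. The part of these differences in the results was not tested.

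Accessibility at these genes differed between the lines much as it did elsewhere. Of 126 regions tested, 105 (83.3%) differed among the 4 lines (edgeR's quasi-likelihood test, adjusted p under 0.05), against 82.9% of all regions. Between a knockout and a wild-type line, line 112 differed from line 119 at 53 regions (28 higher, 25 lower), a comparison that called 45.8% of all regions (22.2% higher, 23.5% lower) and from line 73 at 72 (28 higher, 44 lower, against 49.9%, 23.8% and 26.1% of all regions). Line 113 differed from line 119 at 83 regions (56 higher, 27 lower, against 58.9%, 30.2% and 28.8%) and from line 73 at 70 (38 higher, 32 lower, against 52.2%, 25.8% and 26.5%). Within a genotype, lines 112 and 113 differed at 35 regions (6 higher and 29 lower in line 112, against 23.8%, 8.24% and 15.6%) and lines 119 and 73 at 64 (25 higher and 39 lower in line 119, against 56.9%, 27.5% and 29.4%). The share of the 126 was below that of all regions for 2 of these 6 pairs (42.1% for 112 over 119 and 50.8% for 119 over 73) and above it for the other 4 (57.1% for 112 over 73, 65.9% for 113 over 119, 55.6% for 113 over 73 and 27.8% for 112 over 113). The comparisons share lines and are not independent.

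Many regions followed a single line. Line 73 was above each of the other lines at 20 of the 126 regions (15.9%, against 13.2% of all regions) and below each at 13 (10.3%, against 10.2%). Line 113 stood above each at 18 (14.3%, against 7.26%) and below each at 2 (1.59%, against 2.65%). For line 119 these counts were 10 (7.94%, against 11%) and 5 (3.97%, against 4.86%). Line 112 was above each at 1 (0.794%, against 1.76%) and below each at 1 (0.794%, against 1.28%). Of the 18 regions highest in line 113, 7 belonged to Dusp6 and 4 to Etv1, and of the 20 highest in line 73, 9 belonged to Dusp5.

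A region was called separated by genotype when both knockout lines differed from both wild-type lines, 4 pairs in all, past the threshold and with 1 sign. This held for 23 of the 126 regions (18.3%, against 15.1% of all regions), of which 11 were higher in the knockout lines (7.64% of all regions) and 12 lower (7.41%). All 23 lay away from the gene ends. Of the 14 regions within 1 kb of a gene end, 0 were separated, against 6.24% of all such regions, and of the 112 farther away 20.5% were, against 16.2%. Higher regions lay at Spred1 (3), Dusp4, Dusp6 and Etv1 (2 each), Dusp5 and Spry4 (1 each). Lower ones lay at Dusp5 (7), and at Dusp4, Spry1, Spry2, Etv4 and Etv5 (1 each). With each line as 1 unit, edgeR's quasi-likelihood test of the genotype called 0 of the 126, as it called 0% of all regions, with 0.143 as the smallest adjusted p. Without adjustment, 22 had p under 0.05 (17.5%, against 16.9%). On the same counts summed per line, DESeq2 called 8 members (6.45% of the regions it tested). The limma-voom fit, called 1 (0.339%), was not on line sums. It used the 8 libraries with lines as random blocks and 1 correlation shared by all regions.

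**Figure D1:**
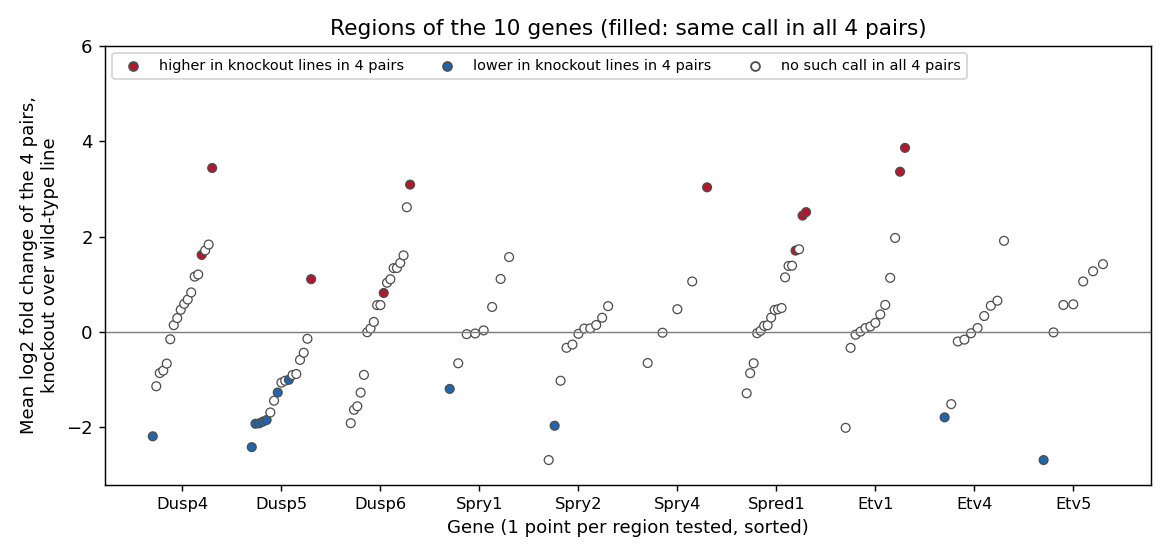
Each point is 1 tested region; the vertical axis is the log2 fold change, knockout over wild type, averaged over the 4 line pairs, and genes stand on the horizontal axis. Filled points are the 23 regions called alike in all 4; 7 of the 12 lower ones belong to Dusp5, whose regions lie mostly below 0.

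The regions at the gene starts were open in every line, with a peak call in all 8 libraries for 8 of the 9 genes that had one. The ninth, Spry1, had a peak in 7. None was separated by genotype. Compared with line 119, line 113 was higher past the threshold at all 9, by log2 fold changes of 0.50 to 0.99. Line 112 was lower than line 113 at all 9 (log2 fold changes from -2.48 to -0.04), and past the threshold at 8. The shares of all gene-end regions past the threshold are not given for these pairs. The median log2 fold change of all 16099 regions within 1 kb of a gene end was 0.71 for line 113 over line 119 and -0.47 for line 112 over line 113, so shifts of this kind were general at gene ends. They go with the share of counts at gene ends given above. Lines 113 and 73 also have the higher p numbers (44 and 68, against 18 for line 112 and 14 for line 119). The part of either was not tested, and the design cannot tell the p number apart from the line. Where only regions with at least 50 counts on average were fitted, Etv1 and Etv5 lost the call for line 112 over line 113 (log2 fold changes of -0.30 and -0.09). Etv5 also lost it with total counts as library sizes (-0.30) and without line 113 replicate 1 (-0.57). In the same fit of regions with at least 50 counts, the difference of line 113 over line 119 fell from 0.82 to 0.30 at the Dusp4 gene end and from 0.99 to 0.46 at the Spred1 start, and both kept their call.

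**Figure D2:**
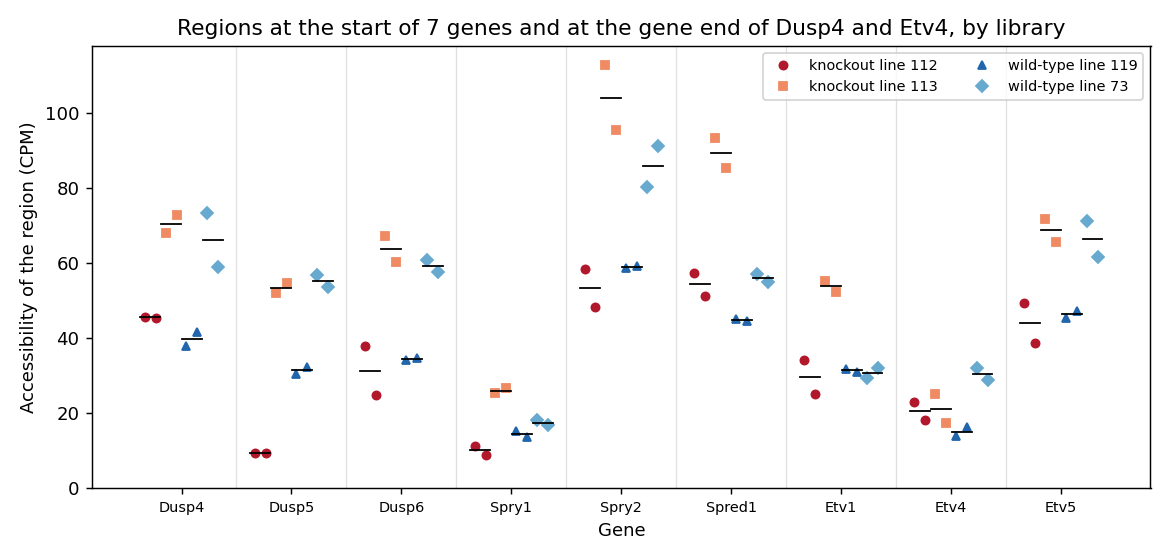
Accessibility in CPM (vertical axis) of the region at the start of 7 genes and at a gene end of Dusp4 and Etv4, whose strand was not taken from a table; each symbol is 1 library and each bar the mean of a line's 2 libraries. Lines 113 and 73 tend to be higher than 112 and 119, and Dusp5 in line 112, at 9.54 CPM in both libraries, lies far below the other lines.

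Dusp5, the gene of a nuclear ERK phosphatase, had the most separated regions, 8 of the 23. Its strongest region at the start was low in 1 line. Its promoter region (chr19:53528776-53529502), which contains the sequence with the 2 CArG boxes, had 9.54 and 9.54 CPM for line 112, 52.1 and 54.9 for line 113, 30.5 and 32.4 for line 119, and 56.8 and 53.6 for line 73. In this region line 112 alone was low, while line 113, the other knockout, lay near line 73 (log2 fold change -0.05, SE 0.17, adjusted p 0.84). The counts behind these values were 41 and 31 for line 112, and 192 to 236 in the other 6 libraries. Line 112 was lower than line 113 by a log2 fold change of -2.48 (SE 0.21, adjusted p 2.39e-13), than line 119 by -1.72 (SE 0.21, adjusted p 2.18e-09) and than line 73 by -2.53 (SE 0.21, adjusted p 7.38e-15). Of all regions within 1 kb of a gene end, 0.323% had a lower value than -2.48 for line 112 over line 113. This was the 1 region of the 126 in which line 112 was below each of the other lines. The difference from line 73 kept its call in all 16 alternatives and ran from -2.73 to -2.06. A peak was called here in all 8 libraries, line 112 included.

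Inside Dusp5 and downstream of it, both knockout lines were low. The region 2.76 kb after the start (chr19:53531364-53532447), the strongest outside the promoter, had 4.89 and 4.31 CPM for line 112, 5.66 and 9.43 for line 113, 23.3 and 20.1 for line 119, and 46.6 and 45 for line 73. The genotypes did not overlap, and line 73 was above line 119. The means were 6.07 ± 2.09 CPM over the knockouts and 33.7 ± 17.1 CPM over the wild types (SD, n = 2 lines). The genotype log2 fold change was -2.48 (SE 0.74, adjusted p 0.15 with lines as units), whereas the test of any difference among the lines gave an adjusted p of 1.32e-17.

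The other 6 lower separated regions of Dusp5 lay farther from the start. At 26.3 kb after the start (chr19:53555113-53555714) there were 4.42 and 6.46 CPM for line 112, 4.08 and 5.08 for line 113, 13.2 and 14.4 for line 119, and 28.9 and 22.5 for line 73. At 14.7 kb (chr19:53543539-53544178) the knockout libraries had 2.49 to 4.11 CPM and the wild-type libraries 8.92 to 14.9. In both the 4 wild-type libraries stood above all 4 knockout ones. The separated regions at 16.4 kb and 36.9 kb were weaker, at 1.13 to 3.39 CPM in the knockout lines, and lost the call in 4 and 8 of 15 alternatives. The remaining separated ones, 38.0 kb before the start and 23.8 kb after it, had 7.97 ± 1.66 against 15.9 ± 2.59 CPM and 9.12 ± 1.37 against 21.9 ± 2.62 CPM (SD, n = 2 lines, knockout first).

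One Dusp5 region went the other way. At 6.34 kb after the start, inside the gene (chr19:53534858-53536118), the values were 16.3 and 19.7 CPM for line 112, 21.1 and 20.8 for line 113, 10.1 and 12.0 for line 119, and 8.19 and 6.39 for line 73. All 4 knockout libraries were above all 4 wild-type libraries. The log2 fold changes of the 4 pairs ran from 0.70 to 1.51. Of the 17 regions of Dusp5, 11 had no overlap between the libraries of the genotypes, out of 39 such regions among the 129 (30.2%, against 26.7% of all regions), and line 73 was above each other line at 9.

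**Figure D3:**
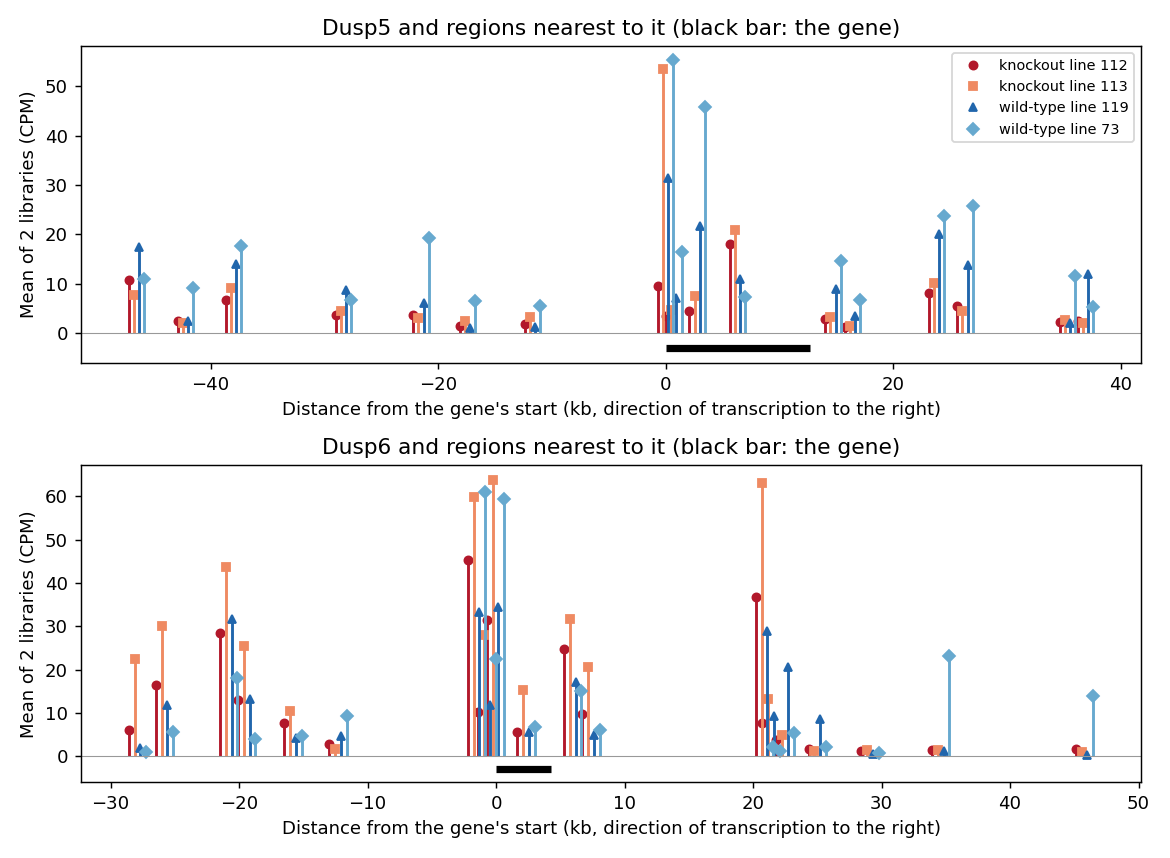
Mean CPM of each line (vertical axis) at the regions of Dusp5 (top) and Dusp6 (bottom) against the distance from the gene's start in kb (horizontal axis), with the gene as a black bar. Symbols of a region are set side by side to keep them apart. At Dusp5 line 112 is low at the start and both knockout lines are low at 2.76 kb; at Dusp6 line 73 is close to 0 at 20.9 kb and stands alone at 34.6 and 45.8 kb.

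Dusp4 encodes another nuclear phosphatase, an inducible enzyme that acts on ERK and JNK. Its gene-end region with the highest level (chr8:34806839-34808133) had 45.8 and 45.6 CPM for line 112, 68.2 and 72.8 for line 113, 38.0 and 41.7 for line 119, and 73.5 and 59.2 for line 73. The genotypes overlapped there. A region 2.50 kb outside the gene (chr8:34804771-34805450), on the same side, differed most. It had 33.0 and 26.8 CPM for line 112, 35.1 and 35.3 for line 113, 2.97 and 2.53 for line 119, and 4.35 and 1.94 for line 73. Both knockout lines were open and both wild-type lines nearly closed, with no overlap.

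The means of this Dusp4 region were 32.6 ± 3.75 CPM over the knockouts and 2.95 ± 0.28 CPM over the wild types (SD, n = 2 lines). Its genotype log2 fold change was 3.44 (SE 0.77, adjusted p 0.143 with lines as units), and any difference among lines had an adjusted p of 3.3e-20, the smallest at this gene. It was the 1 member called for the genotype by limma-voom (adjusted p 0.0445) and, in edgeR restricted to regions that overlap a peak call, the only member called (adjusted p 0.0492). Its 4-pair call held in all 16 alternatives, with mean log2 fold changes of 3.22 to 3.79.

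Another higher region lay 4.07 kb beyond the opposite end of Dusp4 (chr8:34823390-34824536). It had 14.9 and 12.0 CPM for line 112, 12.2 and 18.4 for line 113, 3.49 and 4.22 for line 119, and 6.91 and 4.44 for line 73, without overlap. In contrast, a weak region 45.4 kb away (chr8:34761946-34762508) had 1.67 ± 0.254 CPM over the knockouts and 7.91 ± 1.75 CPM over the wild types (SD, n = 2 lines). Inside the gene, the strongest region (chr8:34814529-34815709) had 19.8 to 31.2 CPM over the 8 libraries, and the test of any difference among lines gave an adjusted p of 0.147.

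Dusp6, which encodes the cytoplasmic ERK phosphatase, varied mainly by single lines. Its start region (chr10:99262878-99263483) had 37.9 and 24.9 CPM for line 112, 67.3 and 60.5 for line 113, 34.3 and 34.8 for line 119, and 60.9 and 57.8 for line 73. The pairs 113 with 73 and 112 with 119 were close, and line 112 was below line 113 by a log2 fold change of -1.0 (SE 0.18, adjusted p 2.39e-05). This value was -0.46 where only regions with at least 50 counts on average were fitted. The neighbouring region 1.52 kb before the start, the strongest outside it, ran from 31.2 CPM in line 119 to 62.4 CPM in line 113.

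The Dusp6 region with the smallest p among lines lay 20.9 kb after the start (chr10:99283779-99284395). It had 41.7 and 32.0 CPM for line 112, 64.3 and 61.7 for line 113, 28.3 and 29.4 for line 119, and 2.05 and 2.22 for line 73. It was open in 3 lines and nearly closed in line 73. Line 113 exceeded line 73 by a log2 fold change of 4.87 (SE 0.28, adjusted p 3.69e-21), and the other wild-type line, 119, exceeded it by 3.74 (SE 0.30, adjusted p 6.71e-16). Line 73 was below each other line at 5 of the 19 Dusp6 regions and line 113 above each at 7.

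Chosen after their values were seen, regions at 34.6 kb (chr10:99297603-99298124) and 45.8 kb (chr10:99308782-99309294) after the Dusp6 start showed the reverse. The first had a mean of 23.1 CPM in line 73 and 1.11 to 1.46 CPM in the other lines. The second had 13.8 CPM in line 73 and 0.343 to 1.62 CPM elsewhere. Line 119, also picked after its values were seen, stood above each other line at 22.5 kb (mean of 20.5 CPM, against 3.67 to 5.26 CPM). It did so at 25.0 kb as well (8.70 CPM, against 1.17 to 2.22 CPM). The far downstream side of Dusp6 was thus open at different places in different lines.

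On the upstream side, the region 27.9 kb before the Dusp6 start (chr10:99235042-99235584) was separated. It had 8.84 and 3.39 CPM for line 112, 20.6 and 24.2 for line 113, 2.58 and 1.35 for line 119, and 0.512 and 1.39 for line 73. Knockout libraries were higher without overlap, line 113 most of all. The call was lost without line 112 replicate 1 or without line 119 replicate 2. A second separated region at 5.97 kb (chr10:99268614-99269794) had overlapping libraries, 17.2 CPM in line 112 replicate 2 against 18.1 CPM in line 119 replicate 1. Its mean log2 fold change of 0.82 fell to 0.54 without line 112 replicate 1, and its call was lost in 8 of 16 alternatives.

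Sprouty proteins are inhibitors that receptor signalling induces. At Spry1, the start region (chr3:37639659-37640606) had 11.4 and 8.93 CPM for line 112, 25.4 and 26.9 for line 113, 15.4 and 13.7 for line 119, and 18.2 and 16.9 for line 73. Line 112 was lowest and line 113 highest, with a log2 fold change of -1.34 (SE 0.25, adjusted p 3.61e-05) between them, or -0.81 where only regions with at least 50 counts on average were fitted. The weak regions around it, over 10 kb from any gene end in the same 10 Mb window, were also low in line 112 and high in line 119 (log2 of the level over the 4-line mean, -0.75 and 0.41). With this ratio as an offset the difference between lines 112 and 113 was -0.46 and its call was lost. The separated region 14.4 kb after the start (chr3:37653857-37654855), with 7.61 ± 2.52 CPM over the knockouts and 17.0 ± 2.18 CPM over the wild types (SD, n = 2 lines), also lost its call with the offset and in 5 other alternatives.

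Spry2 had one of the most open starts of the set. The region chr14:105897063-105898128 had 58.7 and 48.3 CPM for line 112, 113 and 95.6 for line 113, 58.7 and 59.4 for line 119, and 80.4 and 91.4 for line 73. Again 113 and 73 were the higher lines. The separated region lay 26.0 kb before the start (chr14:105922298-105923403), with 10.5 and 8.31 CPM for line 112, 5.89 and 8.71 for line 113, 31.3 and 30.9 for line 119, and 29.4 and 38.9 for line 73. Wild-type libraries stood well above knockout ones, with means of 32.6 ± 2.18 and 8.35 ± 1.48 CPM (SD, n = 2 lines). The genotype log2 fold change was -1.96 (SE 0.69, adjusted p 0.185 with lines as units), and the 4-pair call held in all 16 alternatives.

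Spry4 had 5 regions, of which 2 lay inside the gene and none within 1 kb of its ends. The separated one (chr18:38591908-38592623, inside the gene) had 10.9 and 9.54 CPM for line 112, 13.6 and 9.43 for line 113, 1.29 and 1.01 for line 119, and 2.30 and 0.556 for line 73. Knockout libraries were higher without overlap. The genotype log2 fold change was 3.04 (SE 0.90, adjusted p 0.149 with lines as units), and the 4-pair call held in all 15 alternatives. The strongest region, 7.61 kb outside the gene (chr18:38578191-38579083), was high in line 113 alone, at 15.6 and 13.5 CPM against 3.33 to 5.35 CPM in the other 6 libraries.

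SPRED1 brings neurofibromin to the membrane to switch off RAS, and it is lost in some melanomas. Its start region (chr2:117119922-117121543) had 57.5 and 51.4 CPM for line 112, 93.3 and 85.4 for line 113, 45.1 and 44.7 for line 119, and 57.1 and 55.0 for line 73. Line 113 was above the rest, and line 112 lay within the range of the wild-type lines or next to it. The 3 separated regions of Spred1 were all higher in the knockout lines. At 41.0 kb before the start (chr2:117079543-117080517) there were 13.3 and 16.6 CPM for line 112, 14.7 and 13.3 for line 113, 4.27 and 4.39 for line 119, and 1.54 and 1.67 for line 73. The knockout lines were alike here, and this call held in all 15 alternatives.

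The strongest Spred1 region away from the start, 64.8 kb after it (chr2:117185524-117186272), differed more between the knockout lines. It had 14.9 and 7.69 CPM for line 112, 48.7 and 25.9 for line 113, 5.69 and 5.23 for line 119, and 2.82 and 1.94 for line 73. The replicates of both knockout lines were far apart. The genotype log2 fold change was 2.62 (SE 0.87, adjusted p 0.171 with lines as units), and the 4-pair call was lost with DESeq2, without line 112 replicate 1 and without either library of line 119. At 89.8 kb (chr2:117210580-117211164) the means were 8.73 ± 3.19 and 2.66 ± 0.571 CPM (SD, n = 2 lines, knockout first), and this call was lost with DESeq2 and without line 113 replicate 2 or line 119 replicate 1.

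Among the ETV genes, Etv1 had 2 separated regions, both inside the gene and higher in the knockout lines. At 27.1 kb after the start (chr12:38806873-38807573) there were 7.21 and 4.62 CPM for line 112, 18.1 and 14.3 for line 113, 0.388 and 1.18 for line 119, and 1.02 and 1.39 for line 73. At 56.2 kb (chr12:38835993-38836605) there were 8.38 and 4.31 CPM for line 112, 7.02 and 5.81 for line 113, 0.775 and 0.507 for line 119, and 0.512 and 0 for line 73. Both were near 0 in the wild-type lines and did not overlap between genotypes. The genotype log2 fold changes were 3.53 (SE 0.97, adjusted p 0.145) and 3.70 (SE 0.96, adjusted p 0.143), with lines as units. Both 4-pair calls held in all 15 alternatives. ETV1 has a known role in melanocytes and in melanoma.

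The start region of Etv1 (chr12:38779294-38780531) had 34.2 and 25.2 CPM for line 112, 55.3 and 52.5 for line 113, 31.9 and 31.1 for line 119, and 29.4 and 32.2 for line 73. Only line 113 was set apart, above each of the other lines. The region 1.51 kb before the start had a log2 fold change of -1.04 (SE 0.20, adjusted p 8e-05) for line 112 over line 113. This value was -0.50 where only regions with at least 50 counts on average were fitted, and it kept its call.

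At Etv4, the gene-end region with the highest level (chr11:101785045-101785639) had 23.0 and 18.2 CPM for line 112, 25.1 and 17.4 for line 113, 14 and 16.4 for line 119, and 32.0 and 28.9 for line 73. Line 73 was highest and the knockout lines lay between the wild-type lines. The region with the smallest p among lines, 2.89 kb inside the gene (chr11:101772349-101772930), had 13.3 and 9.85 CPM for line 112, 15.6 and 12.3 for line 113, 1.16 and 0.844 for line 119, and 11.8 and 10.3 for line 73. It was nearly closed in line 119 alone. The separated region 22.0 kb outside the gene (chr11:101806854-101807799) was lower in the knockout lines, at 12.8 and 10.5 CPM for line 112, 3.85 and 3.87 for line 113, 19.0 and 23.5 for line 119, and 31.7 and 19.7 for line 73. Its call was lost without line 119 replicate 2 or line 73 replicate 1.

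Etv5 had a start (chr16:22439444-22440648) with 49.3 and 38.8 CPM for line 112, 71.8 and 65.8 for line 113, 45.4 and 47.4 for line 119, and 71.4 and 61.7 for line 73. Its genotype means were 56.4 ± 17.5 CPM over the knockouts and 56.5 ± 14.2 CPM over the wild types (SD, n = 2 lines). Inside the gene, 50.3 kb after the start (chr16:22389026-22389581), the values were 5.82 and 4.00 CPM for line 112, 1.81 and 5.56 for line 113, 22.2 and 24.8 for line 119, and 31.5 and 33.6 for line 73. Wild-type libraries were all above knockout libraries there. The genotype log2 fold change was -2.69 (SE 0.77, adjusted p 0.146 with lines as units), and the 4-pair call held in all 16 alternatives. A region at 10.5 kb (chr16:22428763-22429397) was lowest in line 73, at 9.73 and 11.7 CPM against 23.1 to 42.4 CPM in the other 6 libraries.

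**Figure D4:**
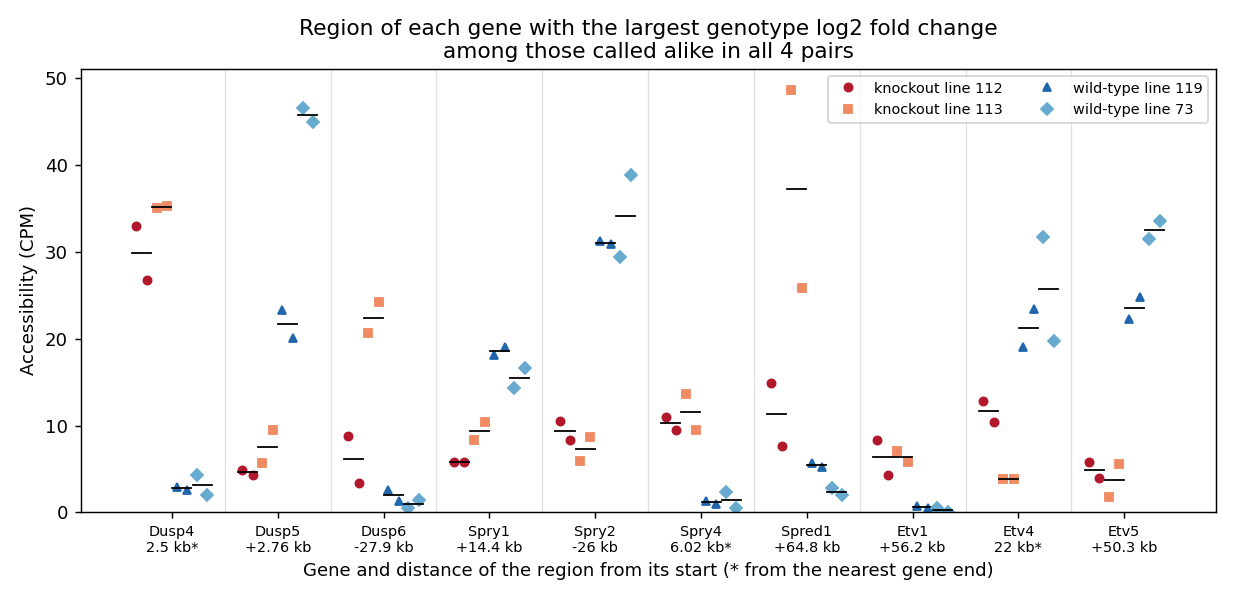
For each gene, the region with the largest genotype log2 fold change among those called alike in all 4 pairs, in CPM (vertical axis); each symbol is 1 library and each bar the mean of a line's 2 libraries. Distances are from the gene's start, or, where marked with an asterisk, from the nearest gene end. The regions were chosen by their calls on these same counts. That the libraries of the genotypes overlap in none of the 10 thus follows largely from the choice. At Dusp6, Spred1 and Etv4 the knockout lines also differ from each other.

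The counts were also summed over all regions of a gene and fitted with the sums of 17767 genes. Of the 10 genes, 9 differed among the lines (84.4% of all genes did), and Etv5 was the exception (adjusted p 0.237). Pairs of lines differed at 48.7% (112 over 119), 51.5% (112 over 73), 57.6% (113 over 119), 52% (113 over 73), 39.7% (112 over 113) and 56.8% (119 over 73) of all genes. The sum was separated by genotype for 4 of the 10, against 12.4% of all genes: Dusp4, Spry4 and Spred1 were higher in the knockout lines (5.05% of all genes) and Dusp5 lower (7.31%). With lines as units 0 of the 10 passed edgeR's quasi-likelihood test (0% of all genes), and the smallest adjusted p, that of Dusp5, was 0.292. At an unadjusted p under 0.05, 9.73% of all genes passed.

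The Dusp5 sum was 94.4 and 117 CPM for line 112, 124 and 144 for line 113, 225 and 219 for line 119, and 263 and 263 for line 73. The order was 73, 119, 113 and 112, in which lines 73 and 119 did not differ past the threshold and the other neighbours did. Its mean log2 fold change over the 4 pairs was -1.03, and the call held in all 17 alternatives. For Dusp4 the sums were 241 and 231 CPM for line 112, 207 and 222 for line 113, 173 and 178 for line 119, and 188 and 159 for line 73, so only the step from line 113 to line 119 passed. Spred1 fell in the order 113, 112, 119 and 73, from 193 and 164 CPM to 80.4 and 80.0 CPM, with no difference past the threshold between the knockout lines. Spry4 went from 30.9 and 34.7 CPM for line 112 to 19.9 and 15.1 CPM for line 73. These 3 calls were lost in 5 (Dusp4), 6 (Spred1) and 7 (Spry4) of 17 alternatives, among them leaving out either library of line 119.

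The other sums did not separate the genotypes. Dusp6 was highest in line 113 (407 and 412 CPM), followed by lines 112 and 119, which did not differ past the threshold, and line 73 (248 and 229 CPM). Etv1 was highest in line 113 (208 and 192 CPM), and among the other lines only 119 and 73 differed. Etv4 was highest in lines 73 (144 and 109 CPM) and 112 (112 and 107 CPM), which did not differ past the threshold, nor did 119 and 113 below them. Spry2 was lowest in line 112 (140 and 127 CPM), and the other 3 lines did not differ past the threshold. Its log2 fold change of -0.44 for line 112 over line 119 lost its call with the regional offset (-0.11) and with regions within 10 kb (-0.17). Spry1 had 34.6 and 37.7 CPM for line 112 and 66.2 and 60.8 CPM for line 119. That difference, a log2 fold change of -0.82 (SE 0.14, adjusted p 1.79e-05), turned to 0.34 with the regional offset, so its direction depends on that choice.

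**Figure D5:**
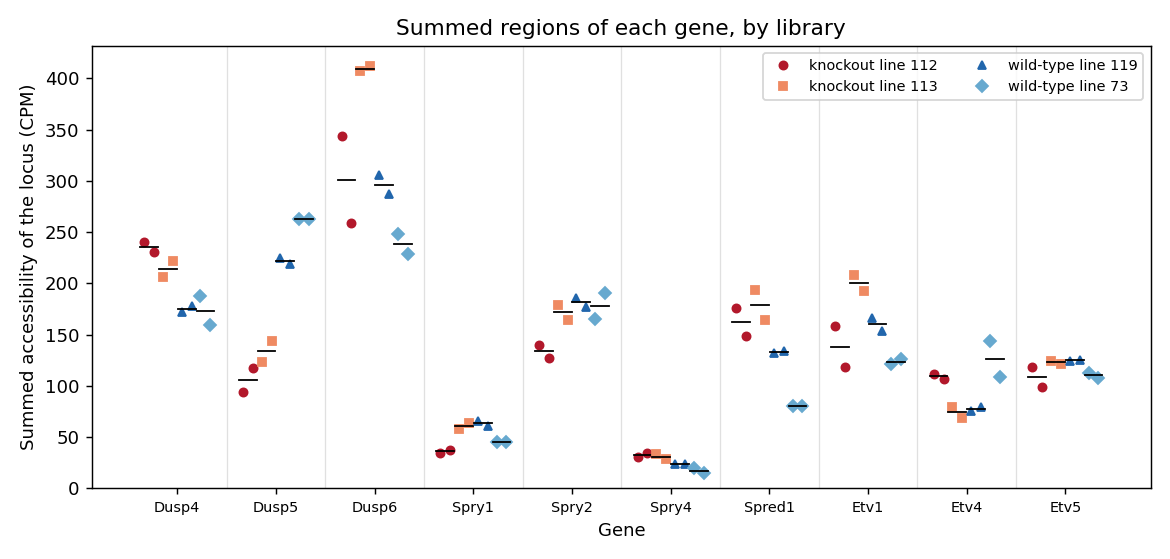
Summed CPM over all regions of each gene (vertical axis); each symbol is 1 library and each bar the mean of a line's 2 libraries. The sum of Dusp5 lies at 94.4 to 144 CPM in the knockout libraries and at 219 to 263 CPM in the wild-type ones; Etv5 is nearly level.

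The rest of the pathway was described by the same sums. In the core cascade and its regulators, 20 genes were tested, among which Mapk3, the gene of ERK1, was separated by genotype and higher in the knockout lines. Mapk3 had 64.4 to 72.6 CPM in the 4 knockout libraries and 43.2 to 55.8 CPM in the 4 wild-type ones, without overlap. Of 12 other phosphatase and feedback genes, 1 was separated higher (Il17rd, a membrane inhibitor of FGF signalling) and 2 lower (Dusp10 and Lrig1). Of 13 other genes induced by ERK, only Fosl1, an AP-1 subunit, was separated, lower in the knockout lines. Of 12 other ETS factors, Fli1 was higher and Ets2 and Elk3 were lower. Of all 17767 genes, 5.05% were separated higher and 7.31% lower. The median genotype log2 fold changes were 0.13, -0.19, -0.06 and 0.17 for these 4 lists, 0.12 for the 10 genes and -0.01 for all 17767.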

How the data were processed

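ATAC-seq accessibility was compared in 8 libraries of 4 lines, 2 per line. The authors deposited raw counts for 148664 regions. Bowtie2 2.2.4, Picard 1.118, MACS2 2.1.1.20160309 and the builds mm10 and GRCm38 are named in the submitters' processing notes, which were available here only as names. Whether reads, fragments or shifted cuts were counted is not given in the sources used here. The deposited peak lists hold a score, a fold (ratio) and −log10 of p and q per peak, and only peak positions were used, at an overlap of 1 bp. The count table had 0 columns of other samples.

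Gene positions, names and promoters came from RefSeq tables of GRCm38.p6. Starts of Dusp4, Spry4 and Etv4 were not taken from these tables, so gene ends were used. The genes, lists and tests were chosen with earlier results of these data known. For each gene, the text names the locus sum, the strongest region at the start and elsewhere, the region with the smallest p among lines, and up to 5 separated regions. Dusp5 had more than 5 separated regions. Its others, and its weaker start region, are given outside this rule, with their values known.

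Counts were filtered with filterByExpr (minimum 10, total 15, 140329 kept), scaled by TMM and tested two-sided with edgeR 4.0.16 (glmQLFit, robust; R 4.3.3) in 1 fit with a mean per line, or on counts summed per line for the genotype, with Benjamini-Hochberg adjustment over all regions at 0.05. CPM used TMM library sizes, and log2 fold changes are the model's. The standard error is the log2 fold change divided by the root of F. Alternatives included DESeq2 1.42.0 and limma 3.58.1. The tests were tried on simulated data. A further result of the core cascade list is not reported here.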

Additional observations from a re-analysis of the deposited data

How the results depend on the processing

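Limits: each genotype is 2 lines, so calls over pairs of lines describe lines. Shallow libraries limit weak regions, where a CPM near 1 rests on a few counts, and counts may hold duplicates. Of 20 separated regions followed singly, 12 kept their call in all alternatives run. With at least 50 counts on average, which tests fewer regions, the members called were 21 (112 over 119), 24 (112 over 73), 19 (113 over 119), 24 (113 over 73), 14 (112 over 113) and 22 (119 over 73), with 34 for any difference and 12 separated. Within 10 kb in place of 50 kb, which leaves fewer members, these were 27, 38, 46, 35, 23, 29, 56 and 13, with 2 gene sums separated. DESeq2 gave 34 for 112 over 119, 22 for 112 over 113, 15 separated, 8 for the genotype and 2 gene sums, and the cause was not tested. For these settings, the members tested and the shares of all regions for each pair of lines are not given. A lower count there need not mean a lower share. For the genotype, 1 member was called among regions with a peak call (0.163% of all such regions) and 1 by limma-voom (0.339% of all regions). With libraries as units 34 were called (22.7% of all regions), and 26 with a replicate block added (17.3%). These last settings count libraries of the same line as separate units, although the genotype varies only between lines. The Spry1 sum, 112 over 119, reversed to 0.34 with the regional offset; the cause was not tested.

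Leaving out 1 library at a time gave 38 to 53 calls for 112 over 119, 53 to 71 for 112 over 73, 58 to 87 for 113 over 119, 62 to 80 for 113 over 73, 25 to 35 for 112 over 113, 44 to 68 for 119 over 73, 97 to 107 for any difference, 0 to 0 for the genotype, 15 to 28 separated regions and 1 to 4 separated sums. Separated regions were 15 without line 119 replicate 1, 16 without line 119 replicate 2 and 28 without line 112 replicate 2, the shallowest library, of which 22 were among the 23. Separated sums were 1 without either library of line 119 and 2 without line 113 replicate 1. For the fits with a library left out, the shares of all regions and genes are not given. A changed count there need not mean a changed share. Same-numbered libraries did not deviate together from the means of their lines (correlations of -0.0434 to 0.0045 over 6 line pairs). Whether they were prepared together cannot be told from this. The replicate block left 23 regions separated, all 23 shared, and ended the call of the Spry4 sum (mean log2 fold change 0.64).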

Other observations

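Some related genes outside the 10 were chosen after their values were seen. The sum of Erg, an ETS factor known from endothelial cells, was 150 and 144 CPM for line 119, 38.6 and 62.1 for line 112, 21.9 and 23.5 for line 113, and 43.9 and 48.1 for line 73. Line 119 was set apart, and the knockout lines differed from each other as well. Etv6, an ETS repressor, had 697 and 645 CPM for line 112, 403 and 363 for line 113, 351 and 346 for line 119, and 235 and 262 for line 73, so line 112 stood above the rest. Dusp2, the gene of another nuclear phosphatase, had 94.4 and 76.2 CPM for line 112 and 62.1 and 70.4 for line 119, but 25.0 and 30.0 for line 113 and 23.8 and 21.7 for line 73. Among the separated genes of the lists, Fli1 had 133 to 159 CPM in the 4 knockout libraries and 36.5 to 63.3 CPM in the wild-type ones, and Lrig1, an inhibitor of ERBB receptors, had 103 to 154 CPM against 225 to 315 CPM.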
